A study of Mus musculus with 30 samples.

Results

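The oligoadenylate synthetases were followed in mouse back skin through a course of chemically induced inflammation, in wild type (WT) mice and in mice lacking the chemokine-scavenging receptor D6. The family was taken as the genes Oas1a, Oas1g, Oas2, Oas3, Oasl1 and Oasl2, and every probe set whose gene symbol in the deposited matrix named one of them was used. This gave 5 probe sets of 45037 that were not array controls, 1 each for Oas1a, Oas2, Oas3, Oasl1 and Oasl2, so that 5 of the 6 genes could be described, and Oas1g was not analysed here. All 5 probe sets passed the filter that left out the 20% of probe sets with the lowest mean, and were among the 36029 tested.

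The design held 10 groups of 3 arrays, 1 group for each genotype on days 0, 1, 2, 4 and 6. The mice were females of the 129–C57BL/6 strain, 8 to 12 weeks old, each array holding total RNA of whole shaved back skin. On days 1 to 6 the skin of WT and D6-deficient mice had received 3 applications of 50 μM TPA, a phorbol ester that irritates the skin, and the days count from the last application. Day 0 stands for controls of each genotype, which received acetone without TPA and which the sample titles call untreated. D6 is missing from every cell of the D6-deficient mice and not from 1 cell type alone. Values are RMA intensities on the log2 scale, so that a difference of 1 is a doubling. The D6 gene (Ccbp2), which checks the genotype labels, ran from 3.30 to 3.86 on the 15 D6-deficient arrays and from 4.15 to 5.76 on the 15 WT arrays with 1 of its 3 probe sets, while the brightest of the 3 did not separate the genotypes. On all arrays Krt14, a keratin of basal keratinocytes, was at 12.66 or above and Col3a1, a fibroblast collagen, at 14.01 or above. Krt1, Krt10 and Dsg1a, further epidermal markers, ran as low as 6.29, 7.55 and 7.71 on single arrays. In whole skin, more cells of a type and more RNA per cell cannot be told apart.

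Oligoadenylate synthetases are enzymes induced by interferon. On binding double-stranded RNA, Oas1, Oas2 and Oas3 proteins join ATP into 2′-5′-linked oligoadenylates, which act as second messengers of antiviral defence. Oasl1 and Oasl2 are the mouse OAS-like proteins, with ubiquitin-like domains at their ends. Oasl2 makes oligoadenylates, whereas Oasl1 is known for holding back translation of Irf7 and not for enzyme activity. Type I interferon reaches these genes through the receptor chains Ifnar1 and Ifnar2 and a complex that holds Stat2 and Irf9, which binds a DNA motif called the interferon-stimulated response element (ISRE).

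The genes lie in 2 groups on chromosome 5 of the RefSeq reference (build GRCm38.p6). Oasl2 (114896926 to 114912245) and Oasl1 (114923143 to 114937911) are neighbours. Oas2 (120730333 to 120749886) and Oas3 (120753098 to 120777684) stand at one end of a second row, which continues through Oas1 copies to Oas1g and Oas1a (120896256 to 120907544). Promoters of 4 of the 5 measured genes were found in the RefSeq promoter table of the same build, and the 250 bases before the start that this table uses are shown because all 5 measured genes differed between the genotypes on day 2. That start lies inside the gene as placed above, so that the last 19 bases of the window of Oas1a, 25 of Oas3, 97 of Oasl1 and 8 of Oasl2 fall within the gene. Capitals mark matches to the ISRE core, GAAA followed by any 2 bases and a further GAAA, searched on both strands, which 2.98% of 32851 promoter windows of this length held.
Oas1a, chr5:120907526-120907775, minus strand: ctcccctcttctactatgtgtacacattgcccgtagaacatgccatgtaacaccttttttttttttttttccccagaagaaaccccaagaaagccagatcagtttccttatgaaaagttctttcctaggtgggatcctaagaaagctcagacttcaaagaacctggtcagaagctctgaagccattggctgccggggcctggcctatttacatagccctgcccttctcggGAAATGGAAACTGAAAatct
Oas3, chr5:120777660-120777909, minus strand: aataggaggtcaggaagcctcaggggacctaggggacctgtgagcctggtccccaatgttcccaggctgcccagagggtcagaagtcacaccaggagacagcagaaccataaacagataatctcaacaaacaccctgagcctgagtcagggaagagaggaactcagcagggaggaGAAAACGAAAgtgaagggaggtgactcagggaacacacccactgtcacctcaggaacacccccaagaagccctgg
Oasl1, chr5:114922990-114923239, plus strand: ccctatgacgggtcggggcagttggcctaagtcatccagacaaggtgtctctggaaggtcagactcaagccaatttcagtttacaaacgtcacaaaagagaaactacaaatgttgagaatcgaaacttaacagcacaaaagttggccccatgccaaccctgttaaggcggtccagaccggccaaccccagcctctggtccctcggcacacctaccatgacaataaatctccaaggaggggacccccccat
Oasl2, chr5:114896684-114896933, plus strand: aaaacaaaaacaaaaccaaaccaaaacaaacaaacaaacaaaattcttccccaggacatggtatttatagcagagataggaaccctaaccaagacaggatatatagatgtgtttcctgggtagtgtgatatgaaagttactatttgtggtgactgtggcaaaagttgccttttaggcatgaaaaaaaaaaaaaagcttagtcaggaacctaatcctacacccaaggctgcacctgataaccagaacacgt
The Oas1a window held 2 overlapping matches, GAAATGGAAA and GAAACTGAAA, from 20 to 5 bases before the start of the promoter table and almost wholly within the gene as placed above. The Oas3 window held 1, GAAAACGAAA, from 75 to 66 bases before that start. The windows of Oasl1 and Oasl2 held none. A match is a run of letters and no measure of binding.

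On day 2 all 5 measured members stood higher without D6, by 3.36-fold to 8.04-fold. Every D6-deficient array lay above every WT array on all 5 probe sets, as on 10.4% of all tested probe sets. For Oas1a (probe set 1424775_at), the D6-deficient arrays read 11.36, 10.61 and 11.46 on the log2 scale and the WT arrays 8.32, 8.41 and 8.34. For Oasl1 (1424339_at), they read 9.07, 8.38 and 8.75 against 5.81, 5.61 and 5.76. For Oasl2 (1453196_a_at), they read 9.54, 8.94 and 9.66 against 6.49, 6.18 and 6.54. In these 3 genes the lowest D6-deficient array was more than 2 above the highest WT array. Oas2 (1425065_at) read 9.09, 8.17 and 9.14 in D6-deficient skin and 6.98, 7.10 and 6.70 in WT skin. Oas3 (1425374_at) read 6.87, 6.08 and 7.18 against 4.80, 5.02 and 5.06. Both Oas2 and Oas3 kept a gap of about 1 between the genotypes. On all 5 probe sets, D6-deficient replicate 2 was the lowest of its group.

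Expressed as D6-deficient minus WT on day 2, the log2 difference was 3.01 for Oasl1 (SE 0.26, 8.04-fold, limma adjusted p = 3.69e-08). It was 2.98 for Oasl2 (SE 0.24, 7.90-fold, limma adjusted p = 1.5e-08). For Oas1a, which makes oligoadenylates, it was 2.78 (SE 0.24, 6.89-fold, limma adjusted p = 3.65e-08). The differences of the other pair were smaller, which was not tested. The difference was 1.87 for Oas2 (SE 0.26, 3.66-fold, limma adjusted p = 6.63e-05). It was 1.75 for Oas3, the largest of the enzymes (SE 0.25, 3.36-fold, limma adjusted p = 9.04e-05). Thus 5 of 5 probe sets were called higher, meaning an adjusted p under 0.05 and a change over 3-fold, where 0.411% of all tested probe sets were. The median of the members was 2.78, against -0.02 over all tested probe sets. The study itself placed these genes on its day 2 list from the same arrays, so that the count is no independent evidence of their direction.

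**Figure D1:**
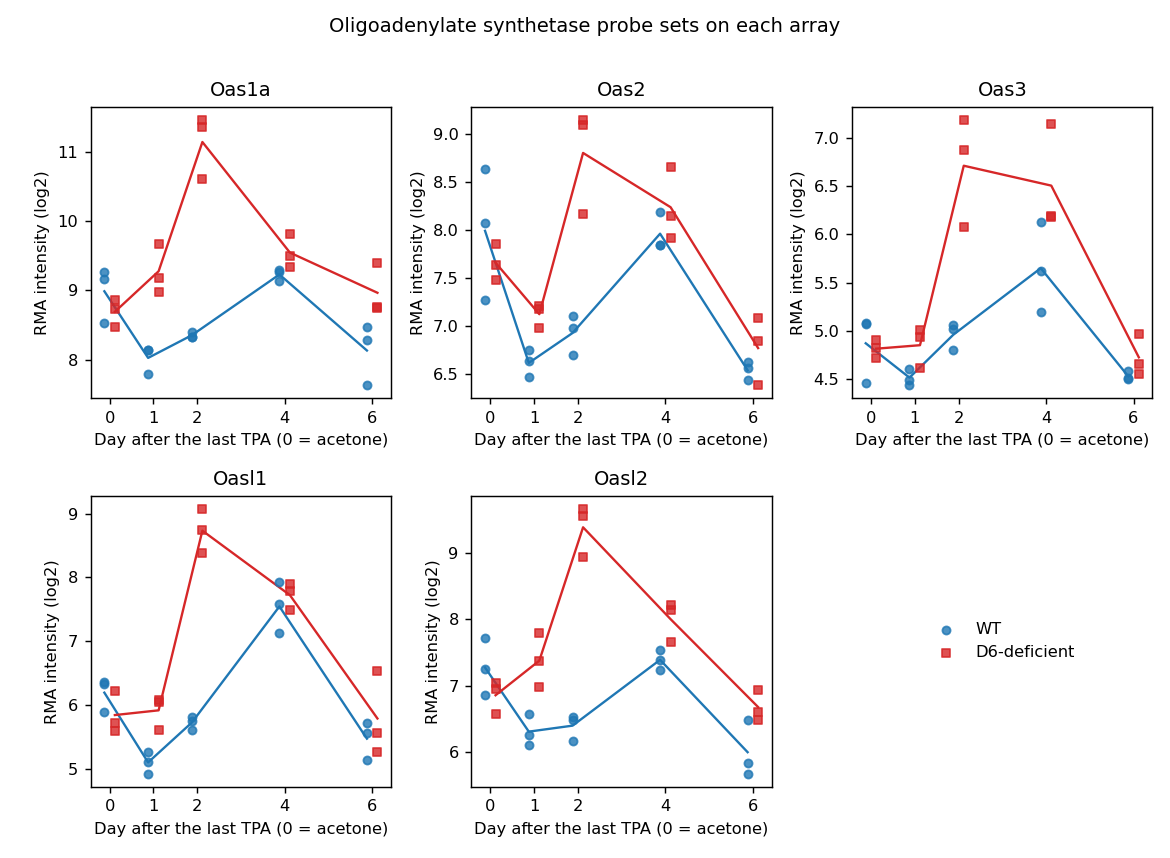
RMA intensity on the log2 scale (vertical axis) of the 5 oligoadenylate synthetase probe sets against the day after the last TPA application (horizontal axis), with 1 point per array, 3 arrays per genotype and day, and lines through the group means. The group means are highest on day 2 in D6-deficient skin (red squares) and on day 4 in WT skin (blue circles), except Oas2 in WT skin. Its day 0 mean of 7.99 is level with its day 4 mean of 7.96. The WT arrays of days 0 and 4 overlap for Oas1a, Oas2 and Oasl2. The D6-deficient arrays of days 2 and 4 overlap for Oas2 and Oas3.

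The same 5 genes were called when each genotype was first set against its own day 0 and these changes were then compared. On day 2 the change was larger in D6-deficient skin by 3.40 for Oasl2 (SE 0.34, limma adjusted p = 1.65e-06), 3.36 for Oasl1 (SE 0.37, limma adjusted p = 5.56e-06) and 3.08 for Oas1a (SE 0.34, limma adjusted p = 6e-06). It was larger by 2.20 for Oas2 (SE 0.37, limma adjusted p = 0.000819) and by 1.81 for Oas3 (SE 0.36, limma adjusted p = 0.00299). Here 0.555% of tested probe sets were called higher. Each value exceeded the direct difference on day 2, because all 5 genes read slightly lower in D6-deficient than in WT controls on day 0. None of the 5 passed this test on day 1, 4 or 6, although its estimate was positive for every gene on each of these days.

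On day 0 the genotypes overlapped on all 5 probe sets. The differences ran from -0.42 (Oasl2) to -0.06 (Oas3), and none passed (limma adjusted p from 0.465 to 0.958). On day 1 the D6-deficient arrays lay above the WT arrays on all 5, as 7.92% of tested probe sets did. Oas1a read 8.98, 9.18 and 9.67 in D6-deficient skin and 8.14, 7.80 and 8.15 in WT skin, a difference of 1.25 (SE 0.24, 2.38-fold, limma adjusted p = 0.0459). Oas1a was 1 of the 7 probe sets, 0.0194% of those tested, that passed as higher on that day. Oas1a no longer passed when any 1 of the 6 arrays was left out (limma adjusted p from 0.0935 to 0.223), so that it stands at the edge of the threshold. Oasl2 read 6.97, 7.37 and 7.79 against 6.10, 6.26 and 6.57, a difference of 1.07 (SE 0.24, limma adjusted p = 0.116). Oasl1 differed by 0.82, Oas2 by 0.51 and Oas3 by 0.34, with limma adjusted p from 0.366 to 0.755. No member other than Oas1a passed on day 1.

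On day 4 none of the members passed between the genotypes. The largest difference was 0.85 for Oas3 (SE 0.25, limma adjusted p = 0.143), with 7.14, 6.19 and 6.18 in D6-deficient and 5.62, 5.20 and 6.12 in WT skin. For Oasl1, which had differed most on day 2, the difference was 0.18 (SE 0.26, limma adjusted p = 0.914). The arrays did not overlap for 3 of the 5 genes, Oas1a, Oas3 and Oasl2, where 7.49% of all tested probe sets were apart in this direction. On day 6 the difference for Oas1a was 0.83 (SE 0.24, limma adjusted p = 0.186), and the other members differed by 0.20 to 0.68. Oas1a was the 1 member whose arrays did not overlap on day 6, as 3.59% of probe sets did in this direction.

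**Figure D2:**
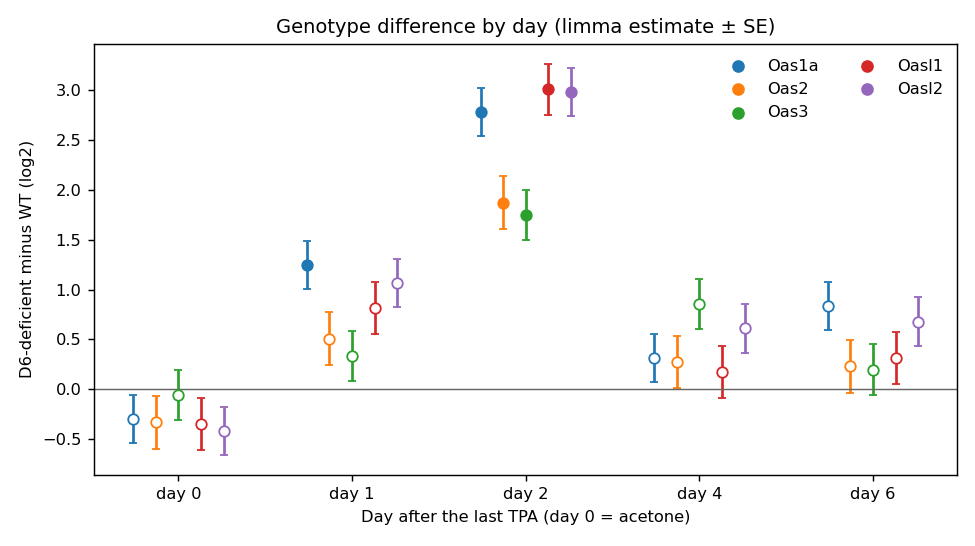
D6-deficient minus WT difference on the log2 scale (vertical axis) on each day (horizontal axis) for the 5 probe sets, as the limma estimate with its SE. Filled points passed an adjusted p of 0.05, and they are all 5 genes on day 2, between 1.75 and 3.01, and Oas1a on day 1.

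Whether the genotype difference itself changed between days was tested directly, a comparison chosen after the values had been seen. The difference on day 2 was larger than that on day 4 by 2.83 for Oasl1 (SE 0.37, limma adjusted p = 0.000152), 2.47 for Oas1a (SE 0.34, limma adjusted p = 0.000261) and 2.37 for Oasl2 (SE 0.34, limma adjusted p = 0.000479). For Oas2 it was larger by 1.60 (SE 0.37, limma adjusted p = 0.0389), and this passed no longer when most of the single arrays were left out (up to 0.115). For Oas3 it was larger by 0.90 (SE 0.36, limma adjusted p = 0.361). So 4 of 5 passed, beside 0.633% of tested probe sets. Against day 6 all 5 passed, beside 0.699%, with Oas2 and Oas3 at limma adjusted p of 0.03 and 0.0322. These 2 genes lost the threshold in most fits that left out 1 array (up to 0.0941 and 0.105). Against day 1, Oas1a, Oasl1 and Oasl2 passed, beside 0.408% (limma adjusted p = 0.0377, 0.00355 and 0.00748). Oas1a no longer passed in most fits that left out 1 array (up to 0.165).

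In WT skin most members fell on day 1 and rose between days 2 and 4. On day 1 against day 0, 4 of 5 genes passed as lower, where 12.7% of tested probe sets did. Oas2 fell by 1.37 (SE 0.26, limma adjusted p = 0.000505), from 8.07, 8.63 and 7.27 on day 0 to 6.47, 6.64 and 6.75. Oasl1 fell by 1.09, Oas1a by 0.96 and Oasl2 by 0.96 (limma adjusted p from 0.00328 to 0.00518). The difference for Oas3 was -0.36 (SE 0.25, limma adjusted p = 0.344). On all 5 probe sets WT day 0 replicate 3 was the lowest of the 3 controls, as low as 7.27 for Oas2. On day 2 Oas2 was still lower than on day 0 by 1.06 on average (log2 difference -1.06, SE 0.26, limma adjusted p = 0.00407), and Oasl2 differed by -0.87 (SE 0.24, limma adjusted p = 0.00934). Oasl2 no longer passed without WT day 0 replicate 2 (adjusted p = 0.0707) or WT day 2 replicate 2 (adjusted p = 0.0522). These 2 of 5 compare with 15% of all tested probe sets lower on that day.

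By day 4 the WT levels had returned to or passed the level of the controls. From day 2 to day 4, 4 of 5 passed as higher, beside 7.16% of tested probe sets. The mean of Oas3 rose by 0.69 without passing (SE 0.25, limma adjusted p = 0.0704). Oasl1 rose most, from 5.81, 5.61 and 5.76 to 7.92, 7.13 and 7.58, a change of 1.82 (SE 0.26, 3.53-fold, limma adjusted p = 2.49e-05). Oas2 rose by 1.03, Oasl2 by 0.99 and Oas1a by 0.87 (limma adjusted p from 0.00625 to 0.0139), and without WT day 4 replicate 3 the adjusted p was 0.054 for Oas2 and 0.0553 for Oas1a. Against day 0, only Oasl1 (1.35, SE 0.26, limma adjusted p = 0.000206) and Oas3 (0.78, SE 0.25, limma adjusted p = 0.0168) of the 5 passed as higher on day 4, beside 17.3% of tested probe sets. Oas3 no longer passed without WT day 0 replicate 3 (adjusted p = 0.111) or WT day 4 replicate 3 (adjusted p = 0.132). Oas1a, Oas2 and Oasl2 stood at 0.24, -0.03 and 0.12 from their day 0 means, and their arrays overlapped with those of day 0.

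From day 4 to day 6 all 5 fell in WT skin, beside 10% of tested probe sets. Oasl1 fell by 2.07 (SE 0.26, limma adjusted p = 2.42e-06), and the others by 1.10 to 1.42 (limma adjusted p from 0.000167 to 0.00211). On day 6, 4 of the 5 passed as lower than day 0, beside 11.9% of tested probe sets, with Oas2 at -1.45 (SE 0.26, limma adjusted p = 0.000397) and Oasl2 at -1.27 (SE 0.24, limma adjusted p = 0.000633). Oas1a at -0.85 (limma adjusted p = 0.0123) and Oasl1 at -0.72 (limma adjusted p = 0.0479) passed as well, but no longer without some single arrays, for example WT day 6 replicate 3 (adjusted p = 0.0845 and 0.18). The difference for Oas3 was -0.34 (limma adjusted p = 0.369).

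In D6-deficient skin the course had no early fall that passed. On day 1 against day 0 the 5 differences ran from -0.53 (Oas2) to 0.58 (Oas1a), with limma adjusted p from 0.0595 to 0.929. On day 2, 4 of the 5 were called higher than on day 0, beside 1.7% of tested probe sets. Oasl1 rose from 6.23, 5.71 and 5.59 by 2.89 (SE 0.26, 7.41-fold, limma adjusted p = 1.03e-08). Oasl2 rose from 6.95, 6.57 and 7.05 by 2.52 (SE 0.24, 5.75-fold, limma adjusted p = 2.71e-08), and Oas1a from 8.86, 8.48 and 8.74 by 2.45 (SE 0.24, 5.45-fold, limma adjusted p = 3.49e-08). Oas3 rose from 4.82, 4.90 and 4.72 by 1.89 (SE 0.25, 3.72-fold, limma adjusted p = 2.59e-06). Oas2 rose by 1.14 from 7.86, 7.49 and 7.64, which passed without reaching 3-fold (SE 0.26, 2.21-fold, limma adjusted p = 0.00131).

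After day 2, 3 members fell at the next step and the other 2 did not pass. From day 2 to day 4 in D6-deficient skin, Oas1a fell by 1.59 (SE 0.24, 3.02-fold, limma adjusted p = 4.1e-05), Oasl2 by 1.38 (SE 0.24, limma adjusted p = 0.000257) and Oasl1 by 1.01 (SE 0.26, limma adjusted p = 0.00817), 3 of 5 beside 8.54% of tested probe sets. Without D6-deficient day 2 replicate 1 the adjusted p of Oasl1 was 0.052. Oas2 changed by -0.56 (limma adjusted p = 0.161) and Oas3 by -0.21 (limma adjusted p = 0.666), and their arrays of the 2 days overlapped. On day 4, 2 of the 5, Oasl1 (1.88, SE 0.26, limma adjusted p = 2.98e-06) and Oas3 (1.69, SE 0.25, limma adjusted p = 8.76e-06), were still called above day 0, beside 1.97% of tested probe sets. Oas3 was then 3.22-fold above day 0, and without D6-deficient day 4 replicate 1, at 7.14 the highest of its group, it no longer reached 3-fold. With Oas1a and Oasl2, 4 of 5 passed on day 4, beside 18.8% of tested probe sets, and Oas2 did not (0.58, limma adjusted p = 0.0837).

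From day 4 to day 6 in D6-deficient skin, 4 of the 5 passed as lower, beside 14.5% of tested probe sets. Oasl1 fell by 1.93 (SE 0.26, limma adjusted p = 3.63e-06), Oas3 by 1.78 (SE 0.25, limma adjusted p = 8.05e-06), Oas2 by 1.46 (SE 0.26, limma adjusted p = 0.000147) and Oasl2 by 1.32 (SE 0.24, limma adjusted p = 0.000186). Oas1a, which had fallen earlier, changed by -0.58 (SE 0.24, limma adjusted p = 0.0687). On day 6 only Oas2 of the 5 passed against day 0, as lower (-0.89, SE 0.26, limma adjusted p = 0.0123), beside 15.7% of tested probe sets. Without D6-deficient day 0 replicate 1 its adjusted p was 0.0528, and without day 6 replicate 2 it was 0.0809.

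Since WT skin had its highest post-TPA means on day 4 and D6-deficient skin on day 2, these 2 groups were compared. All 5 genes were higher in D6-deficient skin on day 2 than in WT skin on day 4, beside 6.41% of tested probe sets. Oasl2 was higher by 1.99 (SE 0.24, 3.98-fold, limma adjusted p = 4.25e-06) and Oas1a by 1.91 (SE 0.24, 3.76-fold, limma adjusted p = 6.11e-06). Oasl1 was higher by 1.19 (SE 0.26, limma adjusted p = 0.00295). Oas3 at 1.06 (limma adjusted p = 0.00594) and Oas2 at 0.84 (limma adjusted p = 0.037) had overlapping arrays, and neither passed without D6-deficient day 2 replicate 3 (adjusted p = 0.0584 and 0.176).

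Ordered by group mean, D6-deficient day 2 stood first and D6-deficient day 4 second for all 5 genes. Next came WT day 4 for Oas3, Oasl1 and Oasl2, D6-deficient day 1 for Oas1a and WT day 0 for Oas2. The lowest of the 10 groups was WT day 1 for Oas1a, Oas3 and Oasl1, and WT day 6 for Oas2 and Oasl2. Of the 9 pairs of neighbouring groups in each order, 7 overlapped for Oas1a, Oas3, Oasl1 and Oasl2, and 8 for Oas2, so that most neighbours did not differ beyond their spread. The top 2 groups were apart for Oas1a (gap 1.59), Oasl2 (gap 1.38) and Oasl1 (gap 1.01) and overlapped for Oas2 and Oas3.

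The members moved together across the 30 arrays, with Pearson's r from 0.82 (Oas1a with Oas2 and with Oas3) to 0.96 (Oas1a with Oasl2). These points share the groups, so the correlation was also computed on deviations from the group means, where it ran from 0.30 (Oas3 with Oasl2) to 0.75 (Oas1a with Oasl1). Arrays that stood high or low in their group tended to do so for several genes. With 1 array per mouse, a trait of the mouse and one of its array cannot be told apart. The mouse numbered 1 among the D6-deficient mice of day 4 was the highest of its group for all 5 genes, as was a different mouse among those of day 6, which lay 0.40 above its group mean on average. D6-deficient day 2 replicate 2 lay 0.52 below its group mean on average.

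Among the other Oas1 copies of the same row on chromosome 5, Oas1f went the other way from the members. On day 2 its probe set (1442389_at) read 8.37, 7.04 and 7.71 in D6-deficient skin and 9.71, 9.70 and 9.78 in WT skin. Oas1f was thus lower in D6-deficient skin, with a log2 difference of -2.02 (SE 0.39, limma adjusted p = 0.00211), and relative to day 0 with a difference of -2.47 (SE 0.55, limma adjusted p = 0.00753). In both genotypes Oas1f was lower on day 4 than on day 0, by -1.65 in WT skin (SE 0.39, limma adjusted p = 0.00157) and -3.17 in D6-deficient skin (SE 0.39, limma adjusted p = 6.17e-07) on the log2 scale, and on day 6 neither genotype differed from day 0 by more than 0.58. Its promoter window held no ISRE core. Its correlation with the mean profile of the members over the 30 arrays was -0.73.

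**Figure D3:**
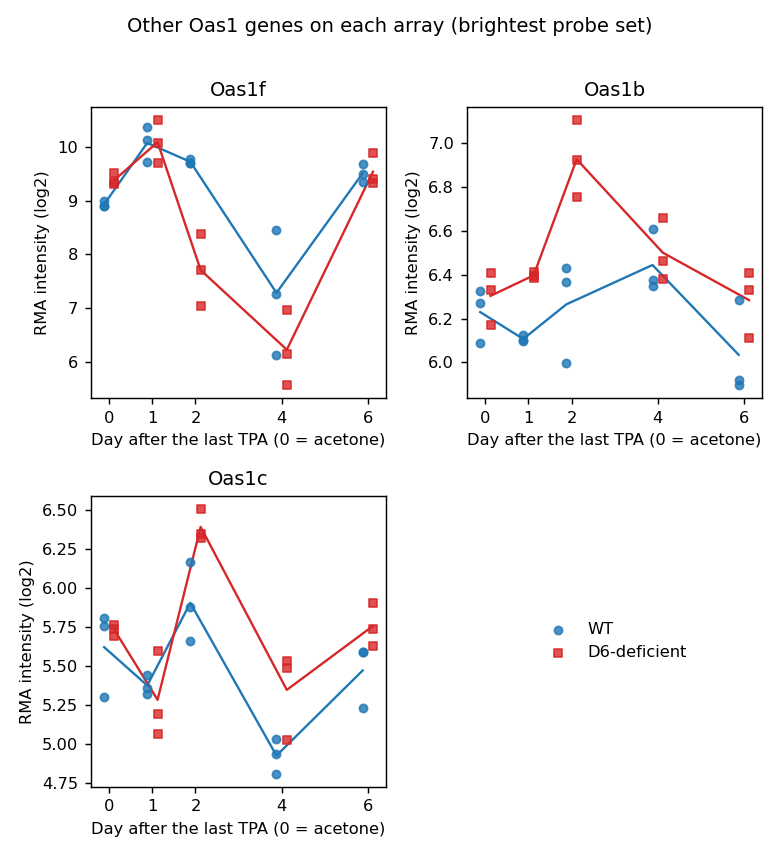
RMA intensity on the log2 scale (vertical axis) of Oas1f, Oas1b and Oas1c against the day after the last TPA application (horizontal axis), with 1 point per array and lines through the group means, WT in blue circles and D6-deficient in red squares. Oas1f is lowest on day 4 in both genotypes, at 5.57 to 6.96 in D6-deficient and 6.13 to 8.46 in WT skin.

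Oas1b, a transcribed pseudogene in the C57BL/6J reference, passed as higher on day 2 in D6-deficient skin, at 7.11, 6.75 and 6.92 against 5.99, 6.37 and 6.43 in WT skin. The difference was 0.66 (SE 0.13, 1.58-fold, limma adjusted p = 0.00191), and the r with the mean member profile was 0.85. Oas1c, whose window held 2 overlapping ISRE cores on the other strand, differed by 0.49 (SE 0.16, limma adjusted p = 0.0864). Oas1h, Oas1e and a probe set shared by Oas1d and Oas1e differed by 0.12, -0.17 and -0.43 without passing. Related genes were Abce1, which encodes a ribosome recycling factor, Pde12, whose product degrades oligoadenylates, and Cgas, a DNA sensor built like an oligoadenylate synthetase. Their brightest probe sets differed by 0.07, -0.38 and 0.23, and none passed (limma adjusted p from 0.206 to 0.884), although 1 of the dimmer Pde12 probe sets passed as lower (-0.68, SE 0.18, limma adjusted p = 0.0308). Oas1 copies resemble each other, and how much RNA of one copy a probe set of another picks up was not tested.

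Among the interferon genes upstream, Ifnb1 was between 3.31 and 4.23 on all arrays, near the lowest mean kept of 3.72, and on day 2 differed by 0.20 between the genotypes (SE 0.16, limma adjusted p = 0.635). Ifng did not exceed 3.98 on any array and fell under the filter. The brightest probe set of Ifnz averaged 5.42 over all arrays, and one shared by several alpha interferons, among them Ifna1, averaged 4.87. Of 21 interferon genes listed, 13 had a probe set and 10 were tested, on 4 brightest probe sets, 1 of which stands for 7 genes of the alpha family, and none passed on day 2. The receptor chains were well above the filter. Ifnar1 was higher in D6-deficient skin by 0.42 (SE 0.11, 1.34-fold, limma adjusted p = 0.0233), and the brightest of the 3 probe sets of Ifnar2 differed by 0.32 (SE 0.13, limma adjusted p = 0.214), while the other 2 passed at 0.51 and 0.66.

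Downstream of the receptor, Irf7, the factor that amplifies interferon production, was higher by 3.24 on day 2 (SE 0.24, 9.48-fold, limma adjusted p = 3.45e-09). Usp18, which damps signalling at the receptor, was higher by 2.90 (SE 0.28, limma adjusted p = 2.22e-07) and Stat2 by 1.65 (SE 0.19, limma adjusted p = 4.01e-06). Of the 16 genes listed from receptors to transcription factors, 6 passed as higher on day 2, beside 2.46% of all tested probe sets. These 3 were called, beside 0.411%. No gene of this list passed as lower between the genotypes on day 2, although 1 did when the changes from day 0 were compared. Of the 9 other double-stranded RNA effectors and sensors, 7 passed as higher, where 2.46% of all tested probe sets did, and 3 of them were called, with a median of 1.34. The called genes were Dhx58, a helicase related to RIG-I (2.04, SE 0.20, limma adjusted p = 2.37e-07), Zbp1, a nucleic acid sensor (1.69, SE 0.21, limma adjusted p = 1.32e-05), and Isg20, an exonuclease (1.69, SE 0.21, limma adjusted p = 1.02e-05). Relative to day 0, Ddx58, which encodes RIG-I, was called too (1.68, limma adjusted p = 5.05e-07). The median of these effectors and sensors stood below the 2.78 of the oligoadenylate synthetases, a difference that was not tested.

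Of 17767 genes, those whose profile over the 30 arrays was most like the mean scaled profile of the members were Irf7 (Pearson's r = 0.96), Ddx58 (0.95), Rtp4 (0.95), Dhx58 (0.94), Parp12 (0.93), Irf9 (0.93), Tcirg1 (0.92) and 2010002M12Rik (0.92). All 8 had their highest group mean in D6-deficient skin on day 2, where for example Rtp4 averaged 11.92 against 9.35 in WT skin. Because they were picked for likeness to members that are highest in that group, this shared peak is no separate result.

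Markers of some leukocytes, but not of T cells, moved with the members on day 2, when 2.46% of all tested probe sets passed as higher. Of 8 neutrophil markers 6 had a probe set, and all 6 passed as higher in D6-deficient skin, with a summed intensity of 2623 to 8891 on the D6-deficient and 589 to 1197 on the WT arrays. Of 7 monocyte and macrophage markers 4 passed as higher, with sums of 33130 to 35270 against 23790 to 26300. Of 7 plasmacytoid dendritic cell markers, some of which keratinocytes also express, 2 passed as higher, with sums of 7180 to 9506 against 6078 to 6615. In these linear sums Ly6d, with a median of 12.02 on the log2 scale over all arrays, outweighed the others, such as Tcf4 (9.98) and Siglech (6.83). None of 7 T cell, 6 keratinocyte or 6 fibroblast markers passed. The T cell sums were lower in D6-deficient skin, at 2639 to 3323 against 3528 to 3915 in WT skin. Thy1, with a median of 11.30 on the log2 scale over all arrays, outweighed the other T cell markers in these linear sums. The medians of the others ran from 6.99 (Cd3e) to 8.51 (Cd3d), so the lower sums are no measure of T cell number. The part of these cells in the rise of the oligoadenylate synthetases was not tested. By the levels of the hybridization controls the arrays formed a low set of 13 and a high set of 17, with 2 D6-deficient and 1 WT array of day 2 in the low set and 1 and 2 in the high set. Within the sets the day 2 difference ran from 1.65 (Oas2) to 2.91 (Oasl1) and from 2.14 (Oas3) to 3.30 (Oasl2).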

How the data were processed

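Whole shaved back skin of 3 mice per genotype and day was hybridized to Affymetrix Mouse Genome 430 2.0 arrays, 1 array per mouse. The deposited values are linear intensities that the authors computed by RMA (background correction, quantile normalization and summarization of probes, in GeneSpring GX). RMA evens out the distributions of the arrays, so a shift shared by most genes would be lost. Their log2 was taken, 64 control probe sets and the 9008 with the lowest means were left out, and a model with 1 mean per group was fitted to all 30 arrays with limma 3.58.1 in R 4.3.3, and p-values were adjusted by Benjamini-Hochberg within each comparison over all 36029 probe sets kept. Probe sets passed at an adjusted p under 0.05 and were called if they also changed over 3-fold. The study's design text names an unpaired t-test, called the methods' t-test here, which was run as an alternative beside the filter, centring, the samples fitted, a hybridization covariate, a replicate block, limma-trend and leaving out single arrays. Tests of the day 2 genotype difference against that of other days were chosen after seeing the data. With 3 arrays against 3, an exact permutation test gives no p under 0.1, and the number of arrays limits the precision.

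Named genes were every member probe set, the other OAS genes with some related genes, pathway genes called on day 2, interferons and their receptors, each by its brightest probe set, and the 8 genes most like the members; some genes of these lists are not reported here. The members and lists were chosen with earlier results of these data known. In the shared Oas1d and Oas1e probe set, and wherever symbols are joined, the RNAs cannot be told apart. Sequences and positions are from RefSeq (GRCm38.p6), whose promoter table matched 4 of 5 members. The fit was tested on simulated data. Python 3.11.15 and matplotlib 3.10.9 drew the plots.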

Additional observations from a re-analysis of the deposited data

Results flagged for a closer look

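For 5 results the change from day 0 differed between the genotypes by a test of that difference itself. All are on day 2, where the change on the log2 scale was larger in D6-deficient than in WT skin by 3.08 for Oas1a, 2.20 for Oas2, 1.81 for Oas3, 3.36 for Oasl1 and 3.40 for Oasl2 (limma adjusted p from 1.65e-06 to 0.00299). On each, all 3 D6-deficient arrays of day 2 lay above all 3 arrays of D6-deficient day 0, as on 24% of all tested probe sets. The WT arrays of day 2 lay below those of day 0 for all but Oas3, as on 21.9% of tested probe sets. Each of the 5 stayed past the threshold under all 18 of its alternatives, those without single arrays included. The methods' t-test was not among these 18.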

How the results depend on the processing

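The counts of 5 genes called on day 2, directly and relative to day 0, stayed at 4 or 5 under every alternative, except that the direct count was 0 with the methods' t-test after Benjamini-Hochberg adjustment. That t-test after adjustment also gave 0 for WT day 4 minus day 2, D6-deficient day 4 minus day 2, D6-deficient day 6 minus day 4 and D6-deficient day 2 minus WT day 4, and unadjusted it gave 1 for the day 1 change relative to day 0. The t-test was not run for the 3 comparisons of genotype differences between days. It estimates the spread of each probe set from 6 arrays alone. For changes relative to day 0 it subtracts the day 0 median of each genotype, so that the spread of the controls is left out. With no fold threshold, by construction, counts rose to 1 for the genotypes on day 1, 4, 2, 2 and 4 for WT days 1, 2, 4 and 6 against day 0, 4 and 1 for D6-deficient days 4 and 6, 4 and 3 for day 4 minus day 2 in WT and D6-deficient skin, 5 and 4 for day 6 minus day 4, and 5 for D6-deficient day 2 minus WT day 4. Centring each array on its median took D6-deficient day 4 minus day 2 to 0. Leaving out single arrays gave 0 to 1 for WT day 1 and for WT day 6 against day 0 (1 without WT day 0 replicate 3), 1 to 2 for WT day 6 minus day 4 (2 without WT day 6 replicate 1), 1 to 2 for D6-deficient day 4 against day 0 and 1 to 3 for D6-deficient day 6 minus day 4 (1 without D6-deficient day 4 replicate 1 in both), 0 to 2 for D6-deficient day 4 minus day 2 (0 without day 2 replicate 1 or 3 or day 4 replicate 2 or 3, 2 without day 2 replicate 2), and 2 to 5 for the genotype difference of day 2 over that of day 1 (5 without D6-deficient day 2 replicate 2). That last count was 4 with the hybridization control set as a covariate, and the one over day 6 was 2 on the arrays of the contrast alone; the cause was not tested. Of 66 single differences that passed, none reversed, and 16 lost the threshold under at least 1 of their alternatives. The methods' t-test was not among these alternatives, as it was run for the counts alone. After its adjustment none of the 5 direct differences of day 2 passed, as their count of 0 shows. Replicate numbers shared across genotypes were tested as a replicate block, which kept 5 and 5 genes called on day 2 and moved no count by over 1.5 times; 3 of 15 same-numbered pairs correlated above 0.1 (from -0.18 to 0.38), so the numbers were not taken as pairs. The arrays give no value below background, which limits Ifnb1 and Ifng, whose levels lie near the lowest mean kept.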
